A study of Rattus norvegicus with 13 samples.

Results

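Histone genes were examined in RNA-seq data of rat mammary epithelial cells. Members were the rows with a histone gene symbol of the older clusters (Hist1h to Hist4h) or of the variants (H2af and H3f3) whose description names a histone protein, 43 of the 14790 genes measured. Rows with the same value in every rat cannot be told apart and were counted as 1 record, so that *Hist1h4b* and *Hist2h4* are 1 record and *Hist2h2aa2* and *Hist2h2aa3* are another. This left 41 records, 32 of replication-dependent histones and 9 of variants. The linker variants H1f0 and H1fx were not analysed here.

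The study asks how gene expression changes over the window of susceptibility (WOS), an age at which the rat mammary gland is prone to carcinogen-induced cancer. Rats susceptible to mammary cancer gave cells at 6 weeks of age (within WOS, n = 6 rats) and at 10 weeks (outside WOS, n = 7 rats). There was 1 library per rat, with no treatment named in the labels. The study's methods name the strain, Wistar-Furth, for the rats of its chromatin contact assay. For RNA-seq they call the rats only susceptible. The cells were ductal fragments from collagenase-digested glands, enriched in epithelial cells, and fibroblasts and immune cells remain in such preparations. The values are RSEM counts that the authors scaled per library and rounded, called normalized counts here, and they total 13261906 to 15659533 per rat at 6 weeks (median 13749795.5) and 13766735 to 15402814 at 10 weeks (median 14574426).

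Replication-dependent histones package newly made DNA, and their clustered genes are transcribed mainly in S phase. Their mRNAs mostly end in a stem-loop bound by the protein Slbp in place of a poly(A) tail, and such mRNAs are degraded when DNA synthesis stops. Most variant histones are made throughout the cell cycle from polyadenylated mRNAs, while *H2afx* is known to give a stem-loop mRNA as well, and variants enter chromatin at promoters, damaged DNA or inactive regions. How RNA was selected for the libraries is not given in the sources used here.

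A share of the replication-dependent histone genes rose within WOS. In a limma fit of log2(normalized count + 1), p-values being adjusted over the 14790 genes by Benjamini-Hochberg at a threshold of 0.05, 11 of the 32 records rose at 6 weeks (34.4%), where 8.71% of all genes did. Higher at 10 weeks were 0 of the 32 records and 7.39% of all genes. The log2 fold change, 6 weeks over 10 weeks, was above 0 for all 32 records, also under each of the other scalings tried, with a median of 2.05 against 0.028 for all genes. On this scale the change of genes with low counts can be understated, and 21 of the 32 records had a median under 10 normalized counts at 10 weeks. In 4 records every 6-week rat lay above every 10-week rat, as in 3.29% of all genes. In bulk RNA, fewer cells that make a transcript and less of it per cell cannot be told apart.

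The count of records depends on single rats. It was 24 without rat 81 (9.88% of all genes rose in that fit) and 17 without rat 86 (8.26%), and it went down to 8 without rat 70 (5.43%) or rat 84 (5.8%), against 8.71% of all genes with all rats. With age means subtracted, the leading component of what varied over all genes (28.3%) set 5 rats apart, namely rats 75 and 80 at 6 weeks and rats 78, 81 and 83 at 10 weeks. No label names this split. Low whole numbers were widely spaced in some rats, 16, 15, 10, 7 and 0 of them being absent in rats 78, 80, 75, 81 and 83. In the other 8 rats 0 to 8 were absent, and a link with the split was not tested. Within the other 8 rats limma called 27 of the 32 records higher at 6 weeks (and 13.4% of all genes), although a set formed from this variation has a narrowed spread. Within the 5 rats limma called 0 records and 0 of all genes, with 6 of the 32 records and 13.5% of all genes at an unadjusted p under 0.05. The median log2 fold change of the records was 2.81 in the 8 rats and 1.21 in the 5, and in the 5 rats 4 of the 32 records were below 0 (down to -1.67 for *Hist2h2ac*).

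**Figure D1:**
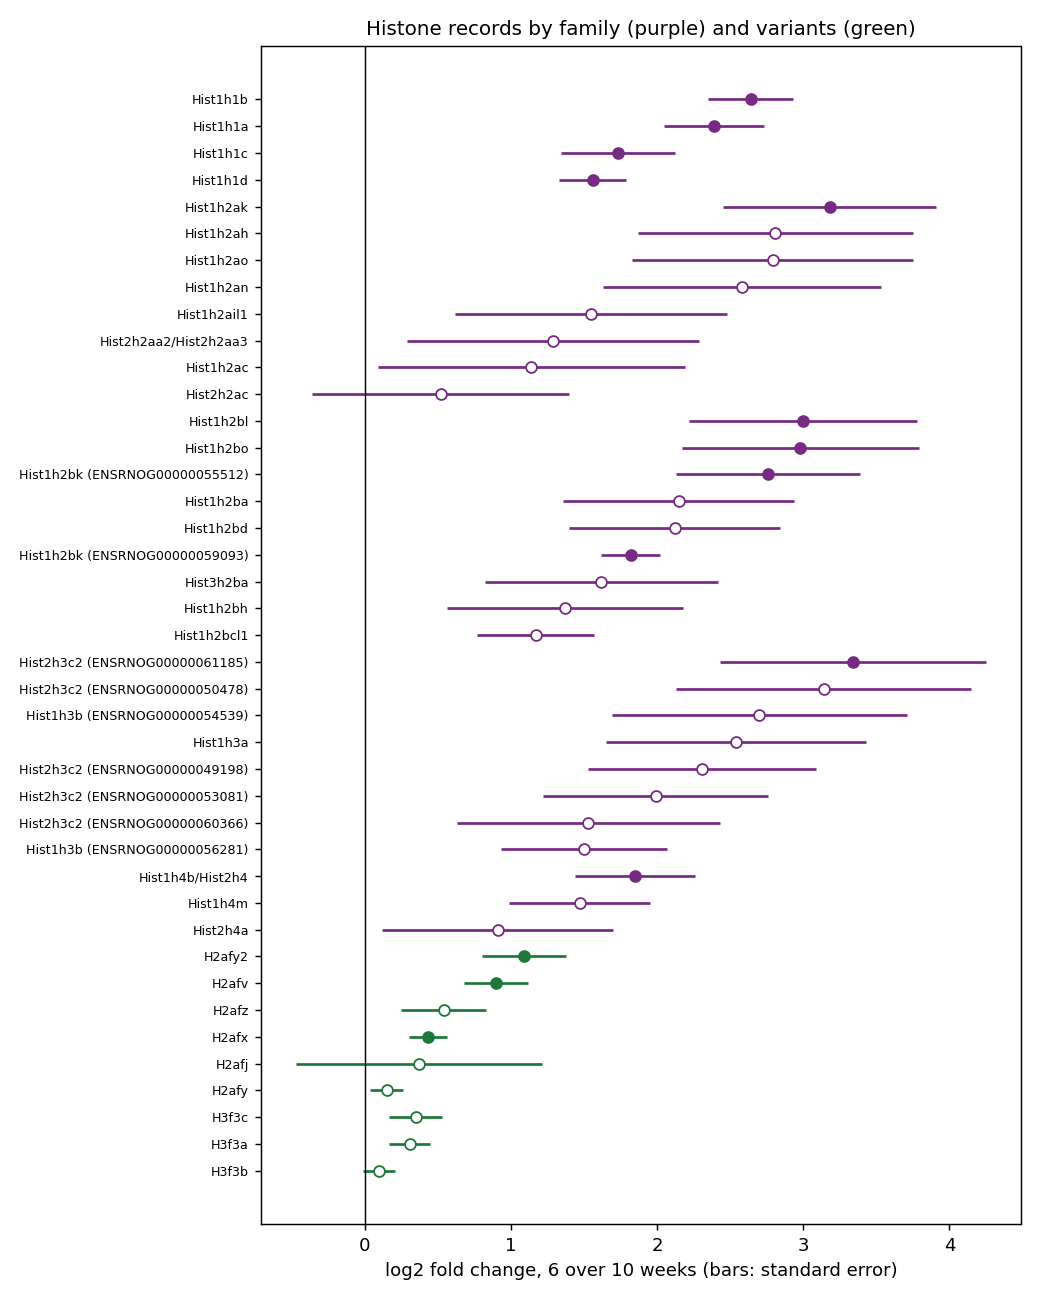
Log2 fold change of each histone record, 6 weeks over 10 weeks, on the log2(normalized count + 1) scale, with its standard error (n = 6 and 7 rats). Purple points are replication-dependent records grouped by family, green points are variants, and filled points passed the threshold. All 41 points lie above 0, and the variants lie between 0.10 and 1.09.

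Linker histone H1 binds DNA between nucleosomes and compacts chromatin, and all 4 replication-dependent H1 records rose at 6 weeks, as did 8.71% of all genes. *Hist1h1b* (ENSRNOG00000060355) had 418 to 1031 normalized counts at 6 weeks (median 511.5) and 63 to 168 at 10 weeks (median 73). The ages did not overlap, with a log2 fold change of 2.64 (SE, the standard error, 0.29, limma adjusted p = 0.000171). *Hist1h1a* (ENSRNOG00000017175) had 203 to 516 normalized counts at 6 weeks (median 245.5) and 33 to 124 at 10 weeks (median 41). Again all 6 younger rats lay above all older rats, with a log2 fold change of 2.39 (SE 0.34, limma adjusted p = 0.000651). *Hist1h1d* (ENSRNOG00000047459) had 248 to 463 normalized counts at 6 weeks (median 348.5) and 84 to 191 at 10 weeks (median 104). Its ages were also apart, with a log2 fold change of 1.56 (SE 0.23, limma adjusted p = 0.000786). *Hist1h1c* (ENSRNOG00000054978) had 368 to 1491 normalized counts at 6 weeks (median 757) and 114 to 509 at 10 weeks (median 196). Here the ages overlapped, since rat 86 at 6 weeks lay below rats 81 and 83 at 10 weeks, and the log2 fold change was 1.73 (SE 0.39, limma adjusted p = 0.0106). These 4 calls held whichever of the 13 rats was left out.

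H2A and H2B form the dimers on the outside of the nucleosome core. Families follow the gene symbol here, which may not name the protein. The RefSeq promoter matched to *Hist1h2ail1* ends in the coding start seen in *Hist1h3b*, and that of *Hist1h2ao* in letters that encode an H4 start. The H2A counts, sums and spread may therefore hold records of other families. Of 8 replication-dependent H2A records only *Hist1h2ak* passed the threshold (12.5%, near the 8.71% of all genes). It had 4 to 42 normalized counts at 6 weeks (median 19) and 0 to 15 at 10 weeks (median 0). Among the 10-week rats only rats 81 and 83 were above 0, and 3 of the 6 younger rats lay above all older rats. The log2 fold change was 3.18 (SE 0.73, limma adjusted p = 0.0127), a size that depends on the pseudocount (5.5 with 0.1 in place of 1, adjusted p = 0.013). The H2A record with the highest mean, *Hist1h2ah*, had 19 to 125 normalized counts at 6 weeks (median 70) and 0 to 51 at 10 weeks (median 3). It missed the threshold (log2 fold change 2.81, SE 0.94, limma adjusted p = 0.0585), with rats 78, 81 and 83 above the lowest 6-week rats. *Hist1h2ao* (adjusted p = 0.0653 from limma, log2 fold change 2.79) and *Hist1h2an* (adjusted p = 0.0806, log2 fold change 2.58) also just missed it, each with 2 of 6 younger rats above all older rats. The other 4 H2A records had log2 fold changes from 0.52 to 1.55. In *Hist2h2aa2* and *Hist2h2aa3* the highest value of all, 112 normalized counts, was in rat 81 at 10 weeks.

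Of 9 replication-dependent H2B records, 4 rose at 6 weeks (44.4%, against 8.71% of all genes). The symbol *Hist1h2bk* stands on different rows, and reads of near-identical histone copies can be split between them, so that the values of single copies are uncertain. *Hist1h2bk* (ENSRNOG00000059093) had 412 to 960 normalized counts at 6 weeks (median 697) and 145 to 229 at 10 weeks (median 187). All 6 younger rats lay above all older rats, and here rat 78 lay below rats 72, 74 and 85 at 10 weeks. The log2 fold change was 1.82 (SE 0.20, limma adjusted p = 0.00017). *Hist1h2bk* (ENSRNOG00000055512) had 29 to 171 normalized counts at 6 weeks (median 81) and 4 to 62 at 10 weeks (median 6). In this copy the ages overlapped through rats 81 and 83, and the log2 fold change was 2.76 (SE 0.63, limma adjusted p = 0.0121). *Hist1h2bl* (ENSRNOG00000053845) had 22 to 190 normalized counts at 6 weeks (median 58) and 0 to 36 at 10 weeks (median 8). Rats 81 and 83 lay within the 6-week range, and the log2 fold change was 3.00 (SE 0.78, limma adjusted p = 0.0214, 4 of 6 younger rats above all older rats). Its call was lost without rat 70 (adjusted p = 0.0544) or rat 84 (adjusted p = 0.0516), over a range of 0.00901 to 0.0544 across the 13 leave-one-out fits, and with a pseudocount of 0.1 (adjusted p = 0.0508). *Hist1h2bo* (ENSRNOG00000054296) had 60 to 524 normalized counts at 6 weeks (median 183.5) and 4 to 158 at 10 weeks (median 10). It overlapped through rats 81 and 83, with a log2 fold change of 2.98 (SE 0.81, limma adjusted p = 0.0267, 4 of 6 younger rats above all older rats). Leaving out rat 70, 84, 72, 74 or 87 ended this call, with adjusted p = 0.0663, 0.0555, 0.054, 0.052 and 0.0555 from limma.

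The H2B record with the highest mean normalized count, *Hist1h2bcl1*, had 362 to 1666 normalized counts at 6 weeks (median 911.5) and 196 to 781 at 10 weeks (median 304). It just missed the threshold (log2 fold change 1.17, SE 0.40, limma adjusted p = 0.0635), and all 6 younger rats lay above the 10-week median. It passed without rat 86 or rat 81, at an adjusted p as low as 0.0262. *Hist1h2bd* (log2 fold change 2.12, adjusted p = 0.0626 from limma) and *Hist1h2ba* (log2 fold change 2.15, adjusted p = 0.0824) also just missed it. Further from it were *Hist3h2ba* (log2 fold change 1.62, adjusted p = 0.182 from limma) and *Hist1h2bh* (log2 fold change 1.37, adjusted p = 0.267).

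**Figure D2:**
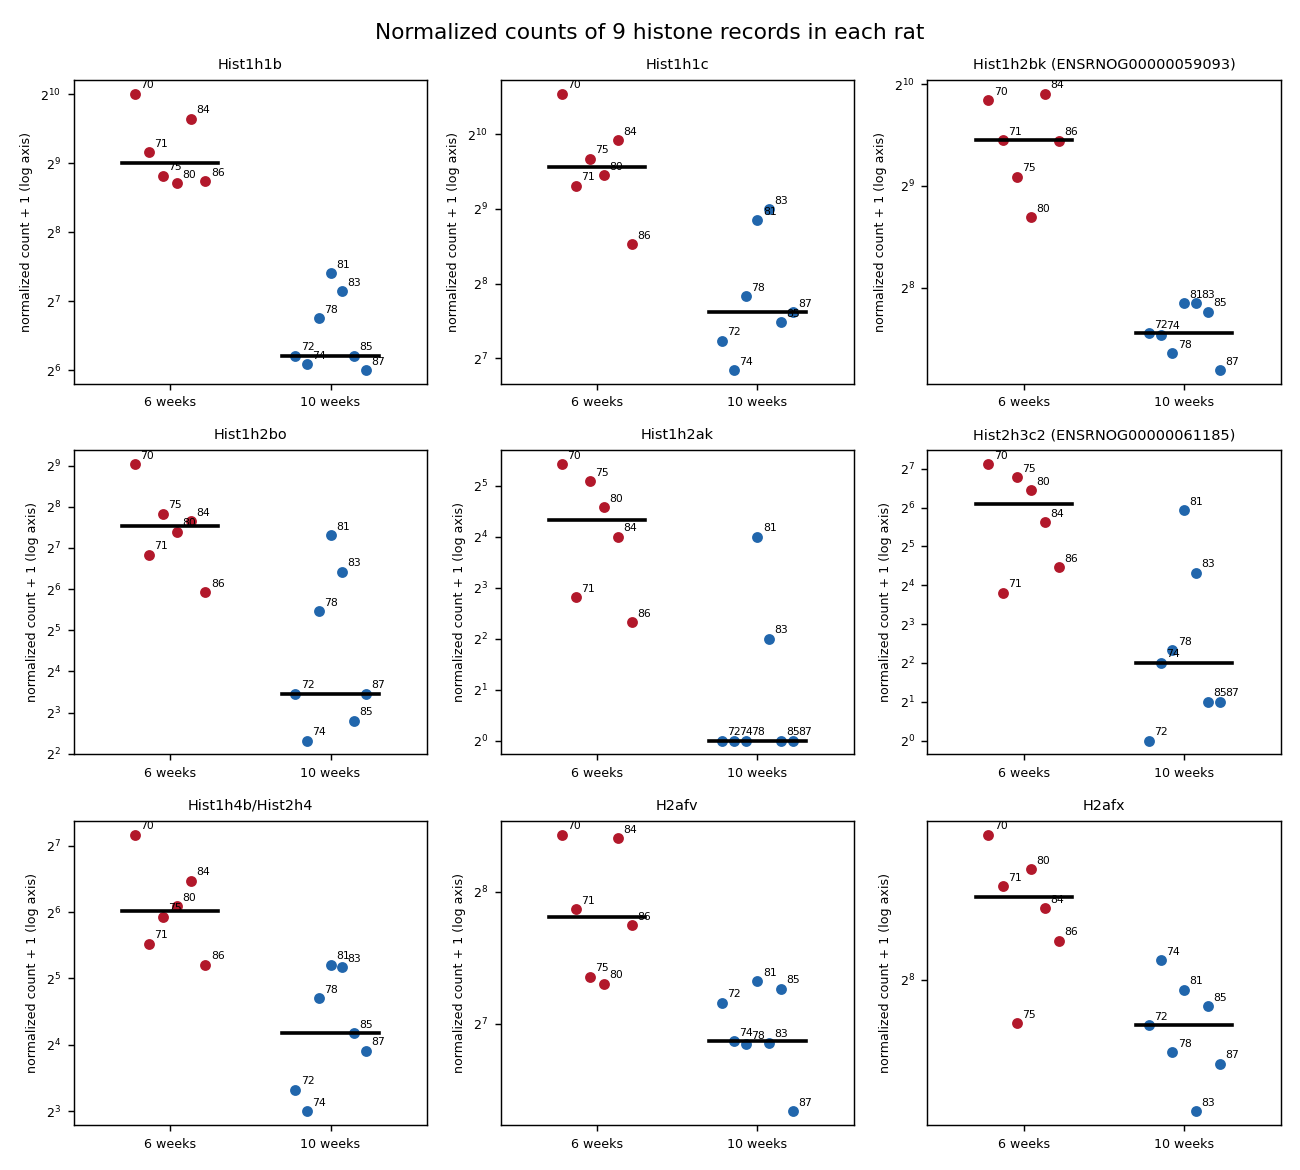
Normalized count plus 1 (log axis) of 9 histone records in each rat, red at 6 weeks (n = 6) and blue at 10 weeks (n = 7), with rat numbers and a bar at the median of each age. In *Hist1h1b* and *Hist1h2bk* (ENSRNOG00000059093) the ages are apart, while in *Hist1h2bo* and *Hist2h3c2* rats 81 and 83 lie within the 6-week range.

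H3 and H4 form the tetramer at the centre of the nucleosome, and 1 of 8 H3 records (12.5%, near the 8.71% of all genes that rose) and 1 of 3 H4 records (33.3%) passed the threshold. *Hist2h3c2* (ENSRNOG00000061185) had 13 to 138 normalized counts at 6 weeks (median 67) and 0 to 60 at 10 weeks (median 3). The ages overlapped through rats 81 and 83, and the log2 fold change was 3.34 (SE 0.91, limma adjusted p = 0.0269, 3 of 6 younger rats above all older rats). This call was lost without rat 70, 84, 72, 74 or 87, with adjusted p = 0.0663, 0.0526, 0.0521, 0.0518 and 0.0561 from limma, and without rats 78 and 80 together (adjusted p = 0.0703), and the symbol stands on other rows too. Its copy ENSRNOG00000050478 had 14 to 117 normalized counts at 6 weeks (median 74.5) and 0 to 115 at 10 weeks (median 2). It lay just beyond the threshold (log2 fold change 3.14, SE 1.01, limma adjusted p = 0.0503), with rat 81 above 5 of the 6 younger rats. The H3 record with the highest mean, *Hist1h3b* (ENSRNOG00000054539), had 8 to 162 normalized counts at 6 weeks (median 80) and 1 to 83 at 10 weeks (median 6). It missed the threshold too (log2 fold change 2.70, SE 1.01, limma adjusted p = 0.0852). *Hist1h3a* (adjusted p = 0.0695 from limma), *Hist1h3b* (ENSRNOG00000056281, adjusted p = 0.0928) and the *Hist2h3c2* copies ENSRNOG00000049198 (adjusted p = 0.061) and ENSRNOG00000053081 (adjusted p = 0.0955) had log2 fold changes of 2.54, 1.50, 2.31 and 1.99. The values of the last of these are identical to those of a row described as H4-like. A further *Hist2h3c2* copy, ENSRNOG00000060366, did not pass (log2 fold change 1.53, limma adjusted p = 0.26).

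*Hist1h4b* and *Hist2h4*, which share their values also with a row described as H4-like, had 36 to 143 normalized counts at 6 weeks (median 63.5) and 7 to 36 at 10 weeks (median 17). The ages touched at 36, the value of rat 86 at 6 weeks and of rat 81 at 10 weeks, and the log2 fold change was 1.85 (SE 0.41, limma adjusted p = 0.0102). *Hist1h4m* had 112 to 566 normalized counts at 6 weeks (median 277) and 26 to 229 at 10 weeks (median 85). It just missed the threshold (log2 fold change 1.47, SE 0.48, limma adjusted p = 0.0541), with rats 78, 81 and 83 above the lowest 6-week rat. *Hist2h4a*, with 14 to 211 normalized counts at 6 weeks and 10 to 168 at 10 weeks, did not pass (log2 fold change 0.91, limma adjusted p = 0.46).

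Rats varied in a shared way across these genes, although rats 78, 81 and 83 also stood apart over all genes. For the counts of records that follow, the share over all genes was not counted. Among the 10-week rats the highest value, ties included, was in rat 78, 81 or 83 for all 32 replication-dependent records, and in rat 81 for 29 of them. Among the 6-week rats, rat 70 had the highest value in 23 records and rat 86 the lowest in 20, ties included. The spread between rats of 1 age, as a median standard deviation on the log2 scale, was 0.60 for the H1 records and 1.8 for the H2A and the H3 records, which also had lower counts. A value of 0 stood in at least 1 rat at 10 weeks for 18 of the 32 records and in at least 1 rat at 6 weeks for 5.

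Summed over records, replication-dependent histones had 2864 to 9185 normalized counts at 6 weeks (median 4799.5) and 768 to 3398 at 10 weeks (median 1103). The lowest 6-week sum, that of rat 86, lay below the sum of rat 81 and above all others at 10 weeks. H1 sums ran from 1368 to 3501 at 6 weeks and from 306 to 943 at 10 weeks, without overlap. The H2A sums of 57 to 462 at 6 weeks and 4 to 367 at 10 weeks overlapped, as did the H3 sums of 61 to 624 and 8 to 373. H2B sums were 1216 to 3678 at 6 weeks and 402 to 1323 at 10 weeks, with rat 86 below rat 81. H4 sums were 162 to 920 at 6 weeks and 43 to 392 at 10 weeks, with rats 71 and 86 below rats 81 and 83, and rat 86 also below rat 78.

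**Figure D3:**
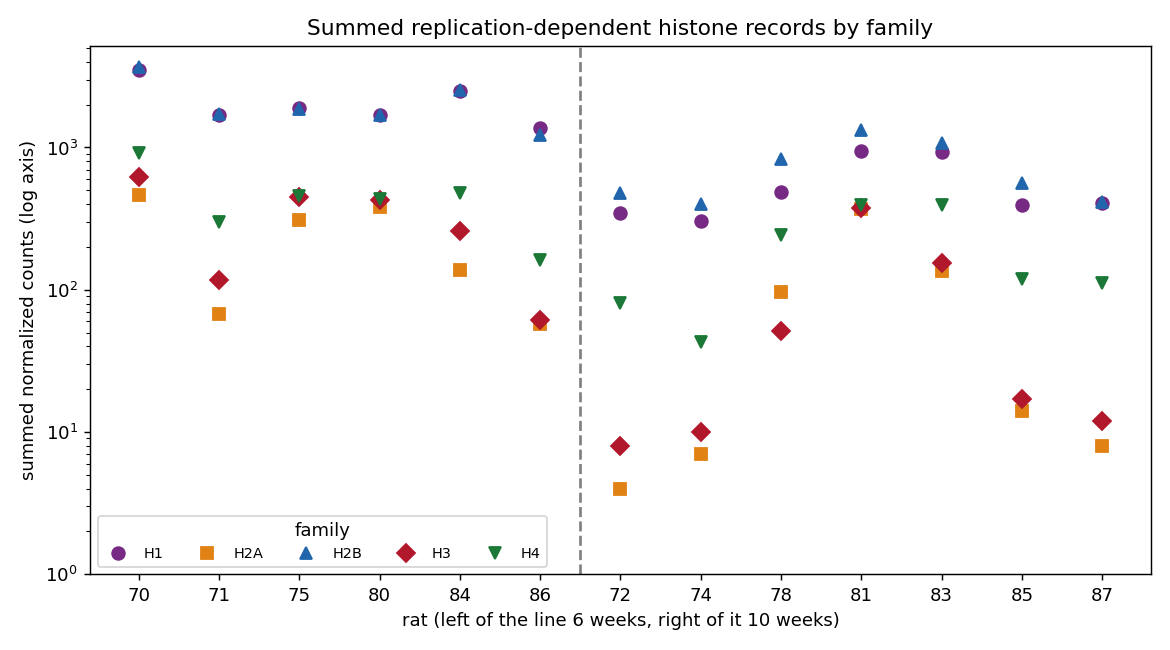
Summed normalized counts (log axis) of the replication-dependent histone records of each family in each rat, with 6-week rats left of the dashed line and 10-week rats right of it. At 10 weeks rats 78, 81 and 83 lie above rats 72, 74, 85 and 87 in every family, and the H1 sums of the ages, 1368 to 3501 and 306 to 943, do not overlap.

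Of 9 variant histone records, 3 rose at 6 weeks (33.3%, against 8.71% of all genes) and 0 were higher at 10 weeks, with a median log2 fold change of 0.37 where the replication-dependent records had 2.05. The ranges overlapped, at 0.10 to 1.09 and 0.52 to 3.34. Whether variants and replication-dependent records differ was not tested. The count was 1 without rat 70 (5.43% of all genes rose in that fit) or rat 84 (5.8%), and limma called 6 in the set of 8 rats, where 13.4% of all genes rose, and 0 in the set of 5 (with 0 at an unadjusted p under 0.05).

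*H2afv*, 1 of the genes of the H2A.Z variant found at promoters, had 157 to 345 normalized counts at 6 weeks (median 223.5) and 80 to 159 at 10 weeks (median 116). The ages overlapped slightly, with rat 80 at 6 weeks below rat 81 at 10 weeks, and the log2 fold change was 0.90 (SE 0.22, limma adjusted p = 0.017, 5 of 6 younger rats above all older rats). *H2afz*, the other H2A.Z gene, had 205 to 584 normalized counts at 6 weeks (median 314.5) and 125 to 415 at 10 weeks (median 205). It did not pass (log2 fold change 0.54, SE 0.29, limma adjusted p = 0.228), and the ages overlapped widely. *H2afx*, whose protein is phosphorylated at DNA breaks, had 229 to 366 normalized counts at 6 weeks (median 313.5) and 184 to 268 at 10 weeks (median 228). All but 1 of the younger rats lay above all older rats (log2 fold change 0.43, SE 0.13, limma adjusted p = 0.0382). This call held in 5 of the 13 fits that left out 1 rat, and was lost without rat 70, 71, 80, 84, 72, 78, 83 or 87, with an adjusted p up to 0.09.

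MacroH2A variants carry a large extra domain and are enriched on the inactive X chromosome. *H2afy2* (ENSRNOG00000024751) had 9 to 31 normalized counts at 6 weeks (median 27) and 6 to 15 at 10 weeks (median 10). Rat 75 was the only 6-week rat within the 10-week range, and the log2 fold change was 1.09 (SE 0.29, limma adjusted p = 0.0262), lost without rat 70 (adjusted p = 0.0647) or rat 84 (adjusted p = 0.0615). *H2afy* had 711 to 961 normalized counts at 6 weeks (median 891.5) and 683 to 900 at 10 weeks (median 783). Its log2 fold change of 0.15 (SE 0.11, limma adjusted p = 0.354) did not exceed the rat-to-rat spread.

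H3.3 replaces H3 outside replication and is encoded by *H3f3a* and *H3f3b*. *H3f3b* had 9609 to 13166 normalized counts at 6 weeks (median 11704.5) and 8875 to 13289 at 10 weeks (median 10897). The ages overlapped almost fully (log2 fold change 0.10, SE 0.11, limma adjusted p = 0.587). *H3f3a* had 807 to 1364 normalized counts at 6 weeks (median 1084) and 707 to 939 at 10 weeks (median 874), with a log2 fold change of 0.31 (SE 0.14, limma adjusted p = 0.142). *H3f3c* had 1911 to 3878 at 6 weeks (median 3281) and 1691 to 2802 at 10 weeks (median 2232), with a log2 fold change of 0.35 (SE 0.18, limma adjusted p = 0.202). In both genes 4 of the 6 younger rats lay above all older rats. *H2afj*, with 0 to 33 normalized counts at 6 weeks and 1 to 33 at 10 weeks, had a log2 fold change of 0.37 (adjusted p = 0.799 from limma).

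Genes that supply histones to replicating DNA moved unevenly. Of 12 genes for transcription of histone genes, 2 rose at 6 weeks (16.7%, against 8.71% of all genes), with a median log2 fold change of -0.05 over the list, and the difference from all genes was not tested here or for the lists that follow. *E2f2*, an S phase transcription factor, had 24 to 62 normalized counts at 6 weeks and 2 to 17 at 10 weeks, without overlap (log2 fold change 1.93, SE 0.39, limma adjusted p = 0.00601). *E2f1* was higher as well (log2 fold change 0.86, SE 0.20, limma adjusted p = 0.0127). *Npat*, the coactivator of histone gene clusters, had 855 to 1071 normalized counts at 6 weeks and 816 to 1563 at 10 weeks, and did not pass the threshold (log2 fold change -0.19, adjusted p = 0.364 from limma). Of 11 rows for processing of the histone mRNA 3-prime end, 0 passed in limma in either direction (1 at an unadjusted p under 0.05, as were 31.6% of all genes), and *Cpsf3* came nearest (log2 fold change 0.54, adjusted p = 0.0511). *Slbp*, which binds the stem-loop, had 397 to 783 normalized counts at 6 weeks and 479 to 738 at 10 weeks (log2 fold change 0.04, adjusted p = 0.896 from limma). Of 10 rows for histone mRNA decay, 0 rose and 2 fell at 6 weeks (7.39% of all genes fell), namely *Papd5* (log2 fold change -0.53, adjusted p = 0.00447 from limma) and *Zcchc6* (log2 fold change -0.42, adjusted p = 0.0319). *Zcchc6* passed in 6 of the 13 fits that left out 1 rat.

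Histone chaperones and importers hand histones to DNA. Of 37 rows, 9 rose (24.3%, against 8.71% of all genes) and 1, *Ubn2*, fell at 6 weeks (log2 fold change -0.42, limma adjusted p = 0.0474, passed in 3 of 13 leave-one-out fits), with a median log2 fold change of 0.11. *Asf1b*, a chaperone of new H3 and H4, had 6 to 35 normalized counts at 6 weeks and 0 to 10 at 10 weeks (log2 fold change 2.12, SE 0.53, limma adjusted p = 0.0177). *Chaf1b*, a subunit of the replication-coupled assembly factor, had 22 to 56 and 2 to 17 normalized counts, without overlap (log2 fold change 1.93, SE 0.40, limma adjusted p = 0.00739). *Mms22l* had a log2 fold change of 2.02 and *Cenpa*, the centromeric H3, of 1.73. *Cenpa* is itself a histone placed on this list, so the 9 rows that rose are not all chaperones or importers. S phase genes rose in 15 of 24 cases (62.5%), with a median log2 fold change of 1.02. Among them *Rrm2*, a subunit of the enzyme that makes deoxynucleotides, had a log2 fold change of 2.82, *Uhrf1* of 2.19, *Mcm5*, part of the replicative helicase, of 2.08 and *Gins1* of 2.08, and *Gins1* passed in 10 of 13 leave-one-out fits. Mitosis genes rose in 13 of 14 cases (92.9%), with a median log2 fold change of 2.40, up to 3.67 for *Tpx2*, 3.37 for *Birc5*, 3.14 for *Ccnb1* and 3.05 for *Top2a*. *Mki67*, a marker of proliferating cells, had 1293 to 2820 normalized counts at 6 weeks and 155 to 766 at 10 weeks (log2 fold change 2.49, SE 0.31, limma adjusted p = 0.000302). The ages did not overlap in this gene.

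Markers of other cell types moved with age as well, and the counts of these short lists stand beside 8.71% of all genes that rose at 6 weeks and 7.39% that fell. Of 7 fibroblast markers, 5 rose at 6 weeks, and their sum ran from 106962 to 223018 normalized counts at 6 weeks (median 186480.5) and from 19450 to 55489 at 10 weeks (median 49809). *Col3a1* was the most abundant of them. Of 7 mast cell markers, 6 rose and 1 fell, *Kit*, which luminal cells also express and which was the most abundant. The mast cell sum ran from 2223 to 3990 at 6 weeks and from 1567 to 3798 at 10 weeks with *Kit*. Without it, a sum added after the values were seen, it ran from 771 to 2049 (median 1555.5) and from 43 to 458 (median 110), without overlap, and the log2 fold changes of the 6 markers were 2.95 to 3.98. All 3 red blood cell genes rose, with *Hbb* the most abundant and sums of 1251 to 3151 and 186 to 829 normalized counts. Of 6 adipocyte markers 3 rose, with *Fabp4* the most abundant and sums of 1550 to 2442 at 6 weeks and 1457 to 2669 at 10 weeks. *Cfd*, 1 of the 3 that rose, passed in 5 of 13 leave-one-out fits. Of 11 luminal markers 2 fell (*Kit* and *Epcam*) and of 9 basal markers 1 fell (*Cnn1*), calls that held in 4, 0 and 4 of 13 leave-one-out fits, with luminal sums of 30844 to 60669 and 45512 to 69213 normalized counts, and basal sums of 23693 to 35955 and 32174 to 42435. Of 4 lymphocyte markers 1 rose, *Cd79b* (7 of 13 leave-one-out fits), and in limma 0 of 8 macrophage and 0 of 5 endothelial markers passed (1 and 1 at an unadjusted p under 0.05), with a largest lymphocyte sum of 493 normalized counts. Macrophage sums were 612 to 1438 normalized counts at 6 weeks and 595 to 1356 at 10 weeks, with *Mrc1* the most abundant, and endothelial sums were 5286 to 9166 and 5063 to 8207, with *Vwf* the most abundant. *Cldn4* led the luminal, *Myh11* the basal and *Ptprc* the lymphocyte list. No marker row in the table was at 0 in all rats. The part of these cells in the histone values was not tested.

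Promoters were taken from RefSeq (GRCr8), since replication-dependent genes are known to be transcribed in the same phase of the cell cycle, and 27 of 37 member symbols matched 1 promoter of 300 bases. On either strand, CCAAT stood in 17 of 20 replication-dependent promoters and in 37.5% of the 33469 promoters of that table, TATAAA in 13 of 20 and 14.2%, the octamer ATTTGCAT in 6 of 20 and 1.78%, and AAACACA, letters known from H1 promoters, in 3 of 20 and 6.99%. Of these 3, 1 was an H1, 1 an H2A and 1 an H2B promoter. The replication-dependent promoters without CCAAT were those of *Hist1h4b*, *Hist1h4m* and *Hist1h2ao*, which held none of the other motifs either. Of 7 variant promoters 5 held CCAAT and 2 held TATAAA (*H2afz* and *H3f3b*), and 1 each held the octamer and AAACACA. No motif contains another. A match is a description of the letters and not of a bound site. Shown are the promoters of *Hist1h1b* (chr17:47421625-47421924, plus strand), *Hist1h1a* (chr17:41794819-41795118, minus strand), *Hist1h2ak* (chr17:47496078-47496377, minus strand), which rose at 6 weeks, and of the variant *H2afv* (chr14:85526019-85526318, minus strand), each 5′ to 3′ with the motifs in capitals.
Hist1h1b: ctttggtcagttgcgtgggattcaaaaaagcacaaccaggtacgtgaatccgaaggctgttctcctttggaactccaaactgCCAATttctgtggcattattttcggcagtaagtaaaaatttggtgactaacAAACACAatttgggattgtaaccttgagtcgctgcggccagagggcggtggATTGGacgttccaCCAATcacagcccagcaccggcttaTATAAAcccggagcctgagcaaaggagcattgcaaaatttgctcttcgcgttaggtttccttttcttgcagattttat
Hist1h1a: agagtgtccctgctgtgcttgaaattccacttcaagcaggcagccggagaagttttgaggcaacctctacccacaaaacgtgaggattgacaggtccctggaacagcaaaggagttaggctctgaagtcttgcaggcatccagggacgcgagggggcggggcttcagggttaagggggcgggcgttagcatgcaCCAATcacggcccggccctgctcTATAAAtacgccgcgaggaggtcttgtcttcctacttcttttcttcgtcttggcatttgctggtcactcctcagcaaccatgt
Hist1h2ak: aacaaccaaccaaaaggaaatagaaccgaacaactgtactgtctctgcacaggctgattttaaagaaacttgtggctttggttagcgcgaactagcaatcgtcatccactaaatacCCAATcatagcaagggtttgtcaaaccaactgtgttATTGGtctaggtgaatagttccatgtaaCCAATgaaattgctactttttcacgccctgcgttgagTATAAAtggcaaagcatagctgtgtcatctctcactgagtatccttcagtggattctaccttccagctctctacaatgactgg
H2afv: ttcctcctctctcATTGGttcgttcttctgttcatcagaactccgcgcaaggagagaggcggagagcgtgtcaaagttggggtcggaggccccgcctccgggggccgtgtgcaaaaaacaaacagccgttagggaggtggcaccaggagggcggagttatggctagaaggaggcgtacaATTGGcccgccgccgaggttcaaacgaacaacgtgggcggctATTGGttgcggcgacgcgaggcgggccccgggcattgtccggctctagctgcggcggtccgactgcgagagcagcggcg
CCAAT or its reverse complement stood in all 4, TATAAA in the 3 replication-dependent ones and not in *H2afv*, 1 of the 5 variant promoters without it, and AAACACA in *Hist1h1b* alone of the 4.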

How the data were processed

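RNA-seq values of 13 rats, 6 at 6 weeks and 7 at 10 weeks, were used as deposited. The authors counted reads per gene with RSEM 1.2.22, scaled each library and rounded, so the deposited values are a score and not raw counts. The genome build is given as rn5 in the submitters' processing notes, and the annotation is not given in the sources used here. The deposited table also holds the authors' EdgeR comparison (fold change, mean abundance, test statistic, p-value, false discovery rate) and a word on nuclear or cytoplasmic location, which were not used. All 14790 genes were fitted with limma 3.58.1 (R 4.3.3) on log2(normalized count + 1), two-sided, without covariates and with Benjamini-Hochberg adjustment. Sums, medians and figures were made in Python 3.11.15. Histone members and gene lists were chosen with earlier results of these data known. Genes named were all histone records past the threshold, those with the highest mean of each family, variants with a mean of at least 100, members with an adjusted p under 0.10, and list genes with the largest changes. Other histone records, list genes, marker genes and rat numbers were named after their values were seen. Alternatives were other scalings, 0.1 as the pseudocount, a filter of 10 or more in all rats, a mean-variance trend, each rat left out and each rat set alone. The low whole numbers of some rats are widely spaced, most in rats 78 and 80, so low counts are less precise there.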

Additional observations from a re-analysis of the deposited data

Results flagged for a closer look

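In 96 groups of rats, a histone record or family sum at 1 age, the gap between the most extreme rat and the next was compared with the range of the group, and 12 groups stood out, where chance gives about 1 in 20 for normally distributed values. These counts are often near 0, so that rate may not hold for them. Rat 81, at 10 weeks, was the highest rat in 10 of them and rat 70, at 6 weeks, in 2. For rat 81 the H2A sum was 367 normalized counts, with 135 in the next rat, and the H3 sum was 373, with 153 in the next. Among records with an H2A symbol, rat 81 had 15 in *Hist1h2ak*, 58 in *Hist1h2ao*, 40 in *Hist1h2an*, 31 in *Hist1h2ail1* and 27 in *Hist1h2ac*, with 3, 15, 8, 6 and 4 in the next 10-week rat. Among the *Hist2h3c2* copies it had 60 (ENSRNOG00000061185), 115 (ENSRNOG00000050478) and 12 (ENSRNOG00000053081) normalized counts, with 19, 29 and 3 in the next. Rat 70 had 524 normalized counts in *Hist1h2bo*, with 227 in the next 6-week rat, and 60 in *Hist1h2ba*, with 19 in the next. These records share rats and may share reads, so the flags are not independent.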

How the results depend on the processing

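The 11 replication-dependent records called, and the 3 variants, kept their number under upper quartile, median-ratio and library size scaling. With at least 10 in every rat, 8 replication-dependent records were left to test and 7 were called (9.73% of all genes tested rose), and with a mean-variance trend 17 were called (9.15%). The larger set of rats gave 27 replication-dependent and 6 variant records, where 13.4% of all genes rose. That set was formed from variation in these same data, which narrows its spread. In the smaller set, with 5 rats, limma called 0 replication-dependent records, 0 variants, 0 supply genes and 0 of all genes (1993 at an unadjusted p under 0.05), and the variant median was 0.05. Without rats 78 and 80, chosen after seeing the data, 1 variant was called and 11 replication-dependent records (7.2% of all genes rose). Of the replication-dependent records *Hist2h3c2* (ENSRNOG00000061185) lost its call (adjusted p = 0.0703 from limma) and *Hist1h2bd* gained one (adjusted p = 0.00902), and the variants *H2afy2* (adjusted p = 0.0774) and *H2afx* (adjusted p = 0.0999) lost theirs. With each rat left out, the calls ran from 8 to 24 replication-dependent records, 1 to 3 variants and 1411 to 2680 of all genes (1411 without rat 70, 1488 without rat 84, 1558 without rat 87). The replication-dependent median ran from 1.76 to 2.42 and the variant median from 0.27 to 0.45. In the smaller set the log2 fold change turned for *Hist2h2ac* (-1.67), *Hist3h2ba* (-1.0), *Hist1h2bh* (-0.52), *Hist2h4a* (-0.16), *H2afz* (-0.40), *H3f3c* (-0.01), *H3f3a* (-0.06) and *H3f3b* (-0.08), none of them called with all rats. With a pseudocount of 0.1 the log2 fold change was 5.5 for *Hist1h2ak*, 4.46 for *Hist1h2an*, 3.57 for *Hist1h2ba* and 3.72 for *Hist2h3c2* (ENSRNOG00000053081), which were 3.18, 2.58, 2.15 and 1.99 with 1. It was 4.25 for *Hist1h2ao* and 3.89 for *Hist2h3c2* (ENSRNOG00000049198), against 2.79 and 2.31 with 1. *Hist1h2bh*, *Hist2h3c2* (ENSRNOG00000060366) and *Hist1h2ac* had 2.6, 2.88 and 1.88, against 1.37, 1.53 and 1.14. *H2afj* turned to -0.02 with a pseudocount of 0.1, and ran from -0.04 to 1.13 with each rat left out. Apart from fewer rats or genes tested, the cause of these shifts was not tested. Depth could not be measured from the scaled values, so what it limits among the low records, many of which stood at 0 in some rats, was not tested.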

Other observations

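Rows described as histones but with symbols outside the rule numbered 15, and 13 of them had values of their own. All 13 had a log2 fold change above 0, with a median of 2.01, and 4 rose at 6 weeks in limma (30.8%). Of all genes 8.71% rose, with a median of 0.028. LOC102549061, an H2B-like gene, had 184 to 678 normalized counts at 6 weeks and 26 to 129 at 10 weeks, without overlap (log2 fold change 2.64, standard error 0.40, adjusted p = 0.00107 from limma). LOC684828, similar to H1.2, had 155 to 700 and 20 to 142 normalized counts, also without overlap (log2 fold change 2.38, standard error 0.45, adjusted p = 0.00405 from limma). LOC690171, described as similar to the H3.3 gene *H3f3b*, had 24 to 234 and 1 to 60 normalized counts (log2 fold change 3.23, standard error 0.78, adjusted p = 0.0152 from limma), and LOC102549173, H3.2-like, had a log2 fold change of 3.18 (adjusted p = 0.041). These rows were chosen after their values were seen. Counted together with the 32 replication-dependent records they gave 15 calls among 45 records, a mixed count, since LOC690171 is described as similar to an H3.3 gene and the 5 RGD1562378 rows as an H4 variant.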
